A study of Mus musculus with 5 samples.

Results

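The 10 genes of transforming growth factor beta (TGF-beta) signalling described here are 10 of 22180 genes with an array feature of their own. They were chosen by name: the ligand gene Tgfb1, the receptor genes Tgfbr1, Tgfbr2 and Tgfbr3, and the SMAD genes Smad1, Smad2, Smad3, Smad4, Smad6 and Smad7. Each had 1 feature naming that gene alone. Hematopoietic stem cells (HSCs) renew the blood lineages, and all-trans retinoic acid (ATRA), a vitamin A derivative, is the ligand of the retinoic acid receptors. Stem and progenitor cells of C57BL/6 mice spent 24 h in culture with ATRA at 5 µM or with DMSO, the solvent control, HSCs were sorted afterwards, and their RNA was measured on 3 DMSO and 2 ATRA arrays. All groups share the strain and the culture, and no uncultured cells were among these samples. The age of the mice, any pooling of animals and whether replicates were separate cultures are not stated in the labels, so a p-value here reflects how far these arrays spread, which may be technical variation only.

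TGF-beta is made in a latent form and, once released, brings a type II receptor and a type I receptor together at the cell surface. The type I receptor phosphorylates receptor SMADs, which bind the common SMAD and enter the nucleus to regulate genes, while inhibitory SMADs dampen the signal. In bone marrow the pathway is known for holding HSCs in quiescence, and megakaryocytes and Schwann cells are known sources or activators of the ligand.

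The promoters of 4 of these genes are shown because 3 of them, Tgfb1, Tgfbr2 and Smad3, had lower values with ATRA in the test that follows, while Smad6, the protein-coding gene next to Smad3 on chromosome 9, did not pass it. Each sequence is the 250 bases upstream of the start site from RefSeq (GRCm38.p6), 5′ to 3′ on the gene's strand. They lie at chr7:25686752-25687001 on the + strand for Tgfb1, and on the - strand at chr9:116175364-116175613 for Tgfbr2, chr9:63757995-63758244 for Smad3 and chr9:64022060-64022309 for Smad6. Capitals mark matches, on either strand, to CAGAC (a SMAD binding element), AGGTCA or AGTTCA (single copies of the repeat that retinoid receptors bind) and GGGCGG (a GC box).
Tgfb1: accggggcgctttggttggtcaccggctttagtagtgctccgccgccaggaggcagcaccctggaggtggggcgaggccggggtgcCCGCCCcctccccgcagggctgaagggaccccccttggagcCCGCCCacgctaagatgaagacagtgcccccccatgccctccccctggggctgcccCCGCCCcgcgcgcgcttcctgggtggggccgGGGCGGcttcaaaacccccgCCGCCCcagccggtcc
Tgfbr2: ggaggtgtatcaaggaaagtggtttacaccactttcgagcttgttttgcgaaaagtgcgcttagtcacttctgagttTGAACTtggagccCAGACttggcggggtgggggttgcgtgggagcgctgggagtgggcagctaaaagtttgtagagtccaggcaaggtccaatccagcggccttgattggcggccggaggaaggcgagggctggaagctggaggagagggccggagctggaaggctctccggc
Smad3: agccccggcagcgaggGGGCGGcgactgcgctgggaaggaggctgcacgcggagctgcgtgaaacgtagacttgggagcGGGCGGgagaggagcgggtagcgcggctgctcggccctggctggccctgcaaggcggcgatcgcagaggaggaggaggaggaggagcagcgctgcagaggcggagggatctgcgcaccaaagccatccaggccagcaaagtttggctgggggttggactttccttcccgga
Smad6: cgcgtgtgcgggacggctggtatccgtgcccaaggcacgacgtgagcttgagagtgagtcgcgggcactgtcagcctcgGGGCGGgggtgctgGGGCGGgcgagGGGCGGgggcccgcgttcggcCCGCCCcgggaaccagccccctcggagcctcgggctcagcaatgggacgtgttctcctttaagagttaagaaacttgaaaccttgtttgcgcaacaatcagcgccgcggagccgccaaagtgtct
Tgfb1 had 5 GC boxes, Smad6 had 4, Smad3 had 2 and Tgfbr2 had 0. Tgfbr2 held the only AGGTCA or AGTTCA and the only CAGAC among these 4 windows, 1 of each. Of 32851 promoter windows of the same length, 42.2% held CAGAC, 24.2% held AGGTCA or AGTTCA and 32.7% held a GC box. The GC content was 75.2% for Tgfb1, 58.4% for Tgfbr2, 69.2% for Smad3 and 66.8% for Smad6, beside a median of 52.4% over all windows. These matches are descriptions of the letters and not evidence of binding. Windows of Tgfbr1 and Smad1, genes that did not pass the test, were read but are not shown. A Tgfbr1 window held 1 CAGAC, another held 2 GC boxes, and the Smad1 window held 1 GC box. None of these held AGGTCA or AGTTCA. Promoter windows of Tgfbr3, Smad2, Smad4 and Smad7 were not used here.

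The question put to these genes was whether their transcripts differ between HSCs cultured with and without retinoic acid. Of the 10 genes, 6 passed a limma adjusted p of 0.05 as lower with ATRA: the ligand gene Tgfb1, the receptor genes Tgfbr2 and Tgfbr3, and Smad2, Smad3 and Smad4. The count of higher genes was 0 (limma, and 0 at an unadjusted p under 0.05), and 4 genes, Tgfbr1, Smad1, Smad6 and Smad7, did not pass. Over all 22180 genes, 15.5% passed as lower and 6.48% as higher. Among genes whose DMSO mean lay within 0.5 of that of the gene named, the share that passed as lower was 33.5% for Tgfb1, 28.5% for Tgfbr2, 54.1% for Tgfbr3, 56.0% for Smad2, 35.1% for Smad3 and 53.9% for Smad4. Both ATRA values lay below all 3 DMSO values in 7 of the 10 genes, and in 29.2% of all genes. In 0 of the 10 did both lie above, as they did in 33% of all genes. Their median log2 fold change was -0.95, against 0.16 over all genes. Centring each array on its median moved the latter to -0.11 and gave 560 higher and 4542 lower calls in place of 1437 and 3428, with 7 of the 10 genes lower. Quantile normalization moved it to -0.03 (439 higher, 1743 lower) and cyclic loess to -0.05 (771 higher, 1504 lower). Changes are differences of deposited log2 values, a scale that understates them for dim features.

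Values were less spread out on the 2 ATRA arrays, and the change of a gene went with its level. The SD over all features was 1.96 to 1.97 in DMSO, 1.77 in ATRA replicate 1 and 1.49 in replicate 2. Each gene is therefore also set beside the genes at its level, those within 0.5 of its DMSO mean, as a description without a test. How far this trend makes up the differences was not tested. With the trend of each array on the DMSO level subtracted, 0 of the 10 genes passed (limma, 2 higher and 2 lower at an unadjusted p under 0.05), where 2.28% of all genes passed as higher and 1.01% as lower. Leaving out DMSO replicate 1, 2 or 3 ended every call on the arrays (limma). Of the 10 genes, 7, 6 and 6 were then lower at an unadjusted p under 0.05, in that order. Of all 22180 genes, 3837, 3941 and 3898 were lower by the same measure. In sorted cells measured in bulk, fewer cells of a kind and less RNA per cell cannot be told apart.

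**Figure D1:**
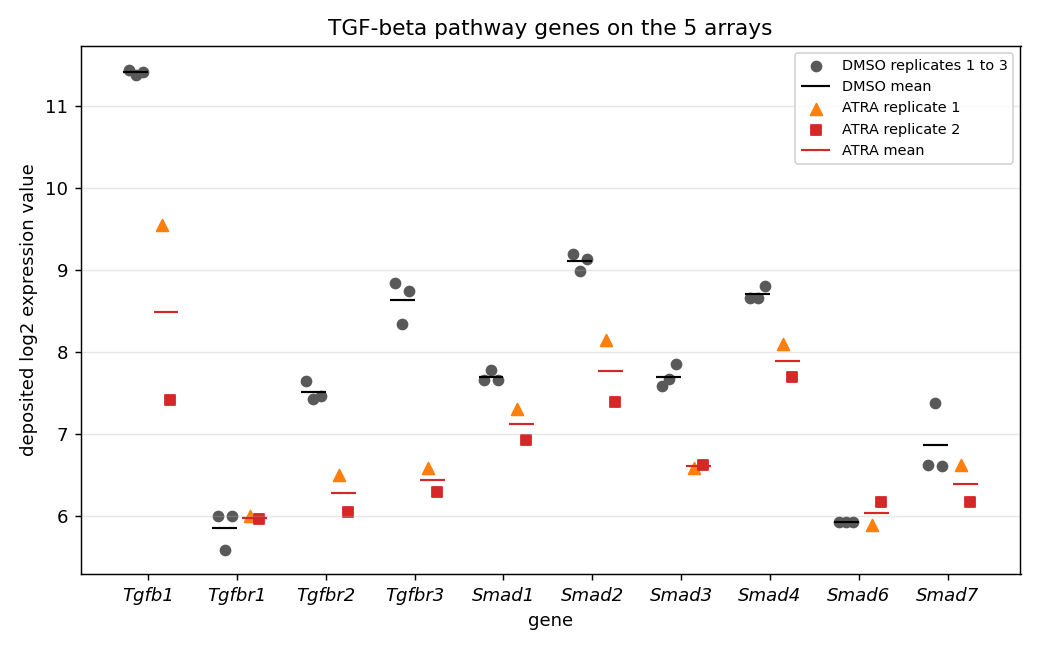
Deposited log2 expression values (y axis) of the 10 genes (x axis) on the 3 DMSO arrays (grey circles, black line for their mean) and on ATRA replicates 1 (triangle) and 2 (square, with a red line for the ATRA mean). Both ATRA values lie below all DMSO values in 7 genes, and the groups overlap in Tgfbr1, Smad6 and Smad7.

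Tgfb1 encodes the TGF-beta ligand best known in blood and immune cells. Its values were 11.45, 11.38 and 11.42 in DMSO replicates 1 to 3, and 9.55 and 7.42 in ATRA replicates 1 and 2. The DMSO arrays were close together, both ATRA arrays were lower, and the ATRA arrays stood 2.13 apart. Tgfb1 fell by 2.93 on the log2 scale (SE 0.66, limma adjusted p = 0.043), which is 7.63-fold lower, with a 95% interval from -4.68 to -1.19. The difference from the DMSO mean was -1.87 in replicate 1 and -4.00 in replicate 2. Of the 155 genes at its level, the median change was -2.34, with quartiles of -3.10 and -1.19, and 32.9% changed by a more negative value. In replicates 1 and 2 the medians of these genes were -0.99 and -3.53, so that Tgfb1 fell further than the median in both. Removal of the level trend nevertheless left a change of -0.04 (adjusted p = 0.867), and cyclic loess normalization one of -0.95 (adjusted p = 0.0218). The call was also lost with an intensity trend and robust prior (adjusted p = 0.0511).

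Of the 3 receptor genes, 2 fell and 1 did not pass. Tgfbr3 encodes betaglycan, the co-receptor that presents ligand to the signalling receptors. It was at 8.84, 8.34 and 8.74 in DMSO, and at 6.58 and 6.29 in ATRA. Both ATRA arrays agreed closely and lay far below every DMSO array. Tgfbr3 fell by 2.21 (SE 0.21, adjusted p = 0.00876), which is 4.61-fold lower, the smallest adjusted p of the 10 genes. The 2370 genes at its level had a median change of -1.43 with quartiles of -1.87 and -0.98, so that Tgfbr3 lay below the lower quartile, and 12.2% of them changed by a more negative value. The change was -1.32 by cyclic loess (adjusted p = 0.0211) and -0.75 with the level trend removed (adjusted p = 0.159).

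Tgfbr2 encodes the type II receptor, which binds the ligand and activates the type I receptor. Its values were 7.65, 7.43 and 7.46 in DMSO and 6.49 and 6.05 in ATRA, with no overlap. Tgfbr2 fell by 1.24 (SE 0.18, adjusted p = 0.0183), which is 2.36-fold lower. It too lay below the lower quartile of the 3405 genes at its level, which had a median of -0.64 and quartiles of -1.06 and -0.24. The call held under cyclic loess (-0.98, adjusted p = 0.0314) and was lost with the level trend removed (-0.59, adjusted p = 0.0919).

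Tgfbr1 encodes the type I receptor, the kinase that phosphorylates receptor SMADs. It was at 5.99, 5.58 and 5.99 in DMSO and at 5.99 and 5.96 in ATRA. The groups overlapped, and DMSO replicates 1 and 3 and ATRA replicate 1 shared 1 value to the last deposited digit. The difference was 0.12 (SE 0.18, adjusted p = 0.597) with an interval from -0.36 to 0.59, and its sign turned under 5 of 13 alternatives. The 5506 genes at its level had a median of 0.38. Differences between the changes of the 3 receptor genes were not tested.

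**Figure D2:**
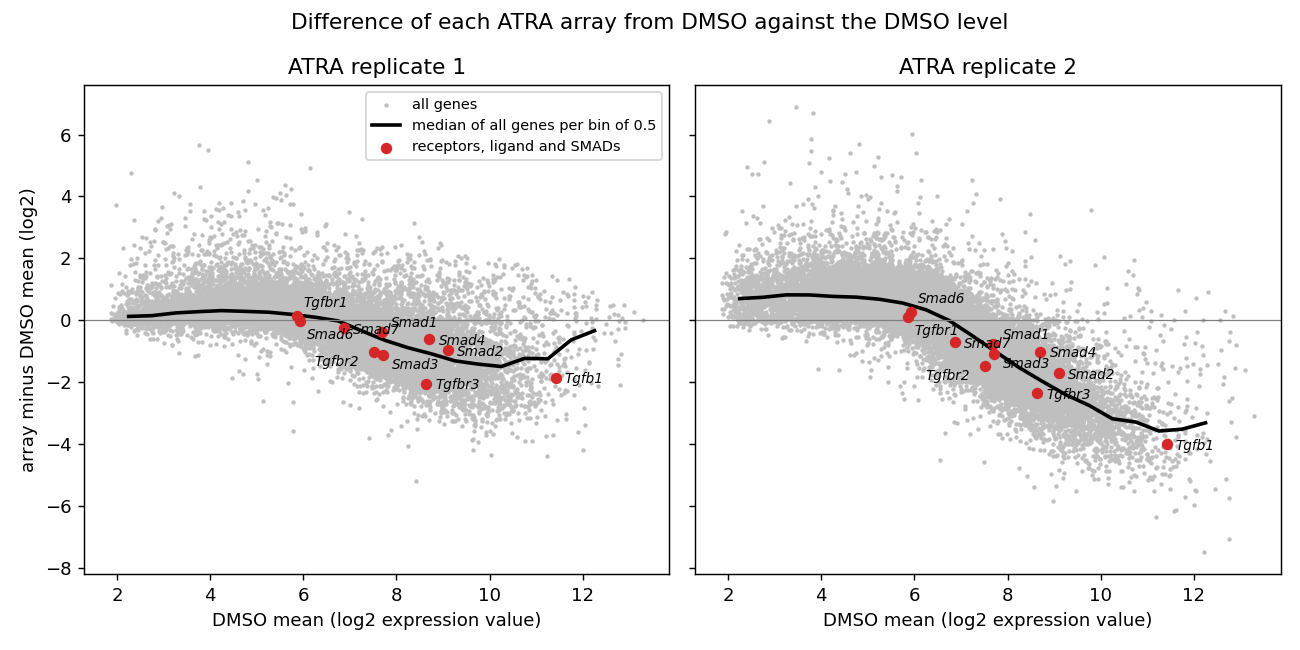
Difference of ATRA replicate 1 (left) and replicate 2 (right) from the DMSO mean (y axis, log2) against the DMSO mean (x axis, log2 expression value) for all 22180 genes (grey), with the median per bin of 0.5 for bins of at least 20 genes (black line) and the 10 named genes (red). Tgfbr2 and Tgfbr3 lie below the line in both arrays, and Smad1, Smad2 and Smad4 above it. Tgfb1, Tgfbr1, Smad3, Smad6 and Smad7 were also below the median of genes within 0.5 of their DMSO mean in both arrays.

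Among the receptor SMADs, Smad2 and Smad3 carry the TGF-beta and activin signal and Smad1 that of bone morphogenetic proteins (BMPs). Smad2 was at 9.1971, 8.9955 and 9.1388 in DMSO and at 8.14 and 7.40 in ATRA. Both ATRA arrays were lower, replicate 2 the more so. Smad2 fell by 1.34 (SE 0.26, adjusted p = 0.0314), which is 2.53-fold lower. The 1713 genes at its level had a median of -1.72 and quartiles of -2.17 and -1.21. Removal of the level trend turned the sign, to 0.40 (adjusted p = 0.217), as did cyclic loess, to 0.06 (adjusted p = 0.851). Quantile normalization ended the call too (-0.66, adjusted p = 0.0944).

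Smad3 was at 7.58, 7.67 and 7.85 in DMSO and at 6.59 and 6.62 in ATRA. The ATRA arrays differed by only 0.03, and both were below every DMSO array. Smad3 fell by 1.09 (SE 0.13, adjusted p = 0.0125), which is 2.13-fold lower, beside a median of -0.79 for the 3337 genes at its level. Its direction was kept under 14 of 14 alternatives, some of which could not change it, with changes from -1.36 to -0.30. Smad3 passed after quantile normalization (-0.94, adjusted p = 0.0337) and after each array was centred on its median (-1.36, adjusted p = 0.00541). Passing fits that held 1 ATRA array or left its change as it was are not counted here. Cyclic loess ended the call (-0.62, adjusted p = 0.0767), as did removal of the level trend (-0.30, adjusted p = 0.4).

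Smad1 was at 7.65, 7.79 and 7.65 in DMSO, the first and last the same to the last digit, and at 7.30 and 6.93 in ATRA. Its groups did not overlap, but the difference of -0.58 (SE 0.16, adjusted p = 0.0683) did not pass. The interval ran from -1.01 to -0.15. The 3346 genes at its level had a median of -0.79, and 63.3% of them changed by a more negative value. Smad1 passed after each array was centred on its median (-0.85, adjusted p = 0.0329). It turned positive, to 0.21, with the level trend removed and to 0.07 with cyclic loess. Smad1 and Smad3 had nearly the same DMSO mean, 7.697 and 7.700, and differences of -0.39 and -1.11 in ATRA replicate 1 and of -0.77 and -1.08 in replicate 2. The difference between the 2 genes was not tested.

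Smad4 encodes the common SMAD that partners all receptor SMADs. It was at 8.66, 8.66 and 8.81 in DMSO and at 8.10 and 7.69 in ATRA, with both ATRA arrays below. Smad4 fell by 0.81 (SE 0.17, adjusted p = 0.0376), which is 1.75-fold lower and the smallest change among the 6 that passed. It lay above the upper quartile of the 2318 genes at its level, whose median was -1.46 and whose quartiles were -1.91 and -0.99. A more negative change was seen in 81.8% of them. The sign of Smad4 turned to 0.49 under cyclic loess (adjusted p = 0.2) and to 0.69 with the level trend removed (adjusted p = 0.119), and after quantile normalization the change was -0.08 (adjusted p = 0.753). An intensity trend with a robust prior also ended its call (adjusted p = 0.0694).

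The inhibitory SMAD genes Smad6, a brake mainly on BMP signals, and Smad7, a brake on TGF-beta receptors that the pathway itself induces, did not pass. Smad6 was at 5.92 in all 3 DMSO arrays, the same to the last digit, and at 5.88 and 6.17 in ATRA. The difference was 0.11 (SE 0.14, adjusted p = 0.529) with an interval from -0.25 to 0.47. The 5453 genes at its level had a median of 0.36. With an SD of 0 in DMSO, the SE of Smad6 rests on the ATRA arrays and on the prior that limma takes from all genes. Its difference was 0.25 without ATRA replicate 1 and -0.04 without replicate 2, and since neither fit holds any spread of this gene, their p-values are no test of it.

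Smad7 was at 6.62, 7.38 and 6.61 in DMSO and at 6.62 and 6.17 in ATRA. DMSO replicate 2 stood above the others, and ATRA replicate 1 had the same value as DMSO replicate 1. The difference of -0.48 (SE 0.32, adjusted p = 0.277) had an interval from -1.33 to 0.37, and was -0.22 without DMSO replicate 2. The 3679 genes at the level of Smad7 had a median of -0.12. Among the 10 genes, 5 had at least 2 arrays with the same value to the last digit, as had 47.8% of all genes.

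**Figure D3:**
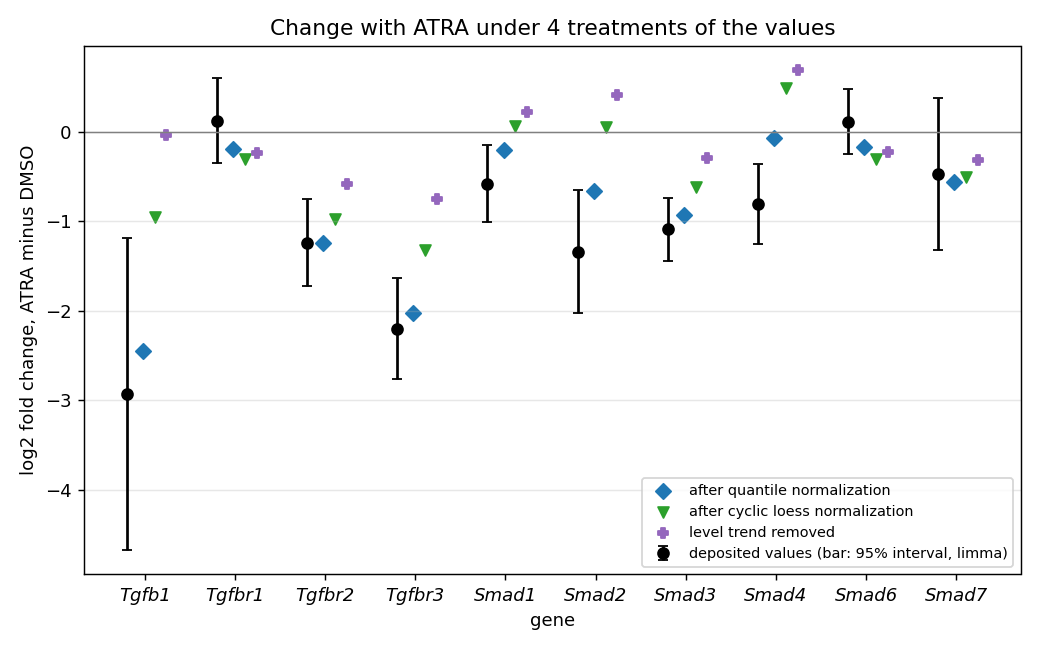
Log2 fold change of ATRA over DMSO (y axis) for the 10 genes (x axis), from the deposited values (black, with 95% intervals) and after quantile normalization, cyclic loess normalization or removal of the level trend (coloured, without intervals). Tgfb1, Tgfbr2, Tgfbr3, Smad3 and Smad7 stay below 0 under all 4, while Smad1, Smad2 and Smad4 turn positive under the last 2.

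The settings divided the genes that passed. After quantile normalization 4 genes passed as lower, Tgfb1, Tgfbr2, Tgfbr3 and Smad3. After cyclic loess normalization 3 genes passed as lower, Tgfb1, Tgfbr2 and Tgfbr3, where 6.78% of all genes did. The ligand and these receptor genes kept a negative sign under 14 of 14 alternatives each, as did Smad3 and Smad7. For Tgfb1 this includes the -0.04 (SE 0.13) with the level trend removed. Smad1, Smad2 and Smad4 kept it under 12 of 14. Some of these alternatives could not change a sign. Leaving out dim genes, another variance model and averaging the features of genes with 1 feature leave the change as it was. Without ATRA replicate 2, the array with the narrowest range, 6 genes passed as lower, where 21.3% of all genes did. Without ATRA replicate 1, 7 passed as lower, where 30.6% did. Both fits take the spread from the DMSO arrays and the prior over all genes.

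By the distance between values centred on each gene's own mean, over the 5 arrays and 525 genes of a like mean, the genes nearest to Tgfb1 were Clptm1 (0.10), Mta1 (0.13), Dcaf13 (0.18), Psmd7 (0.20) and Hnrnpab (0.20). Their log2 fold changes ran from -3.04 to -2.89. The genes nearest to Tgfbr1, the highest of the 10 changes, were Prrg2 (0.04), Elovl2 (0.06), Fam169b (0.06), Btbd35f1 (0.06) and Plpp3 (0.07), out of 9190 candidates. The values of Prrg2 were 5.66, 5.23 and 5.61 in DMSO and 5.61 in both ATRA arrays, with the lower value in DMSO replicate 2 as for Tgfbr1.

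The other genes of the pathway were taken from lists written from textbook knowledge. Of 100 such genes measured, 3 passed as higher, 23 as lower and 74 did not pass. The share that passed as lower was 23%, beside 15.5% of all genes, which are not matched to these by level. The median change of the 100 genes was -0.35. With the level trend removed, 0 of them passed (limma) and the median was -0.06. The changes named in the paragraphs on these lists therefore all lost their calls in that fit.

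Among 14 genes listed as other ligands, 1 rose and 1, a protease gene, fell, with a median of 0.44. Mstn, the muscle growth inhibitor myostatin, rose by 0.89 (adjusted p = 0.0145) from 3.64, 3.60 and 3.72 to 4.48 and 4.60. Bmp1, listed by its name but encoding a protease that processes procollagens and latent TGF-beta complexes, fell by 0.88 (adjusted p = 0.0302). Inhba, an activin subunit, differed by 0.63 (adjusted p = 0.092). The other TGF-beta isoform genes, named to complete the family and outside the naming rule, were Tgfb2, at 5.41 to 5.51 in DMSO and 5.44 and 6.52 in ATRA (0.53, adjusted p = 0.274), and Tgfb3 (0.17, adjusted p = 0.348).

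Among 12 genes of latency and activation, 1 rose and 2 fell. Furin, the protease that cleaves the TGF-beta precursor, fell by 1.99 (adjusted p = 0.0148) from 9.20, 9.29 and 9.13 to 7.61 and 6.82. Mmp14, a membrane matrix protease, fell by 1.32 (adjusted p = 0.0163), and Itgb6, an integrin subunit that activates latent TGF-beta, rose by 0.66 (adjusted p = 0.0479). Among 12 other receptors of the family, 1 rose and 2 fell, with a median of 0.01. Bmpr2, the BMP type II receptor, fell by 2.31 (adjusted p = 0.0182) from 9.95, 9.95 and 10.27 to 8.25 and 7.24. Eng, the co-receptor endoglin, which also marks HSCs, fell by 2.14 (adjusted p = 0.0362). Acvr1c, a type I receptor for nodal and activins, rose by 0.60 (adjusted p = 0.0397).

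Of 8 other SMADs and adaptors, 0 rose (limma), 2 fell and 6 did not pass. Tgfbrap1, a protein that binds the receptors, fell by 1.51 (adjusted p = 0.0159), and Axin1, a scaffold also known from Wnt signalling, fell by 1.29 (adjusted p = 0.0134). Strap, which binds Smad7 and receptors, differed by -1.61 (adjusted p = 0.0837). The remaining receptor SMAD genes, also outside the naming rule, were Smad5 at 7.07, 6.89 and 6.89 in DMSO and 6.89 and 5.34 in ATRA (-0.83, adjusted p = 0.242), and Smad9 with a difference of 0.11 (adjusted p = 0.559). Of 13 ubiquitin ligases, deubiquitinases and phosphatases of SMADs and receptors, 6 fell and 7 did not pass. Of their changes 13 of 13 were negative, as were 42% of those of all genes, a share not matched for level. The mean over the list was 8.17 to 8.23 in DMSO, between the DMSO means of Smad3 (7.70) and Smad4 (8.71). Among genes at the levels of Smad3 and Smad4, the upper quartile of the change was -0.37 and -0.99, so most of them also had negative changes. Single genes of the list ranged in DMSO mean from 6.94 (Nedd4l) to 9.62 (Usp15). With the level trend removed, 5 of the 13 were positive. Wwp2, a ubiquitin ligase that targets SMADs, fell by 2.66 (adjusted p = 0.00674) from 8.98, 8.82 and 9.25 to 6.46 and 6.26. Usp4, a deubiquitinase of the type I receptor, fell by 2.34 (adjusted p = 0.0191), and Rnf111 (Arkadia), a ligase that degrades pathway inhibitors, fell by 1.06 (adjusted p = 0.0255).

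Of 14 nuclear partners, 4 fell and 10 did not pass. Ep300, the acetyltransferase p300 that SMADs recruit, fell by 2.55 (adjusted p = 0.00876), the corepressor Ski fell by 1.54 (adjusted p = 0.0109) and the corepressor scaffold Sin3a fell by 2.25 (adjusted p = 0.0235). Of 12 genes of the arm that does not use SMADs, 5 fell and 7 did not pass. The GTPase gene Rhoa fell by 2.07 (adjusted p = 0.00699), the ubiquitin ligase gene Traf6 fell by 1.80 (adjusted p = 0.0107) and Tab1, a partner of the kinase TAK1, fell by 0.86 (adjusted p = 0.016).

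Of 18 measured genes reported as TGF-beta or BMP targets, 1 fell and 17 did not pass, with a median of -0.30. Cdkn1a, the cell cycle inhibitor p21, fell by 2.47 (adjusted p = 0.0253) from 9.12, 9.11 and 8.83 to 7.21 and 5.88. Tgfbi, an extracellular matrix gene named for its induction by TGF-beta, was at 8.11, 9.01 and 8.61 in DMSO and 7.46 and 7.07 in ATRA (-1.31, adjusted p = 0.0505). Junb, an AP-1 factor gene, was at 9.68, 9.21 and 9.03 in DMSO and 6.80 and 8.10 in ATRA (-1.85, adjusted p = 0.0525).

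**Figure D4:**
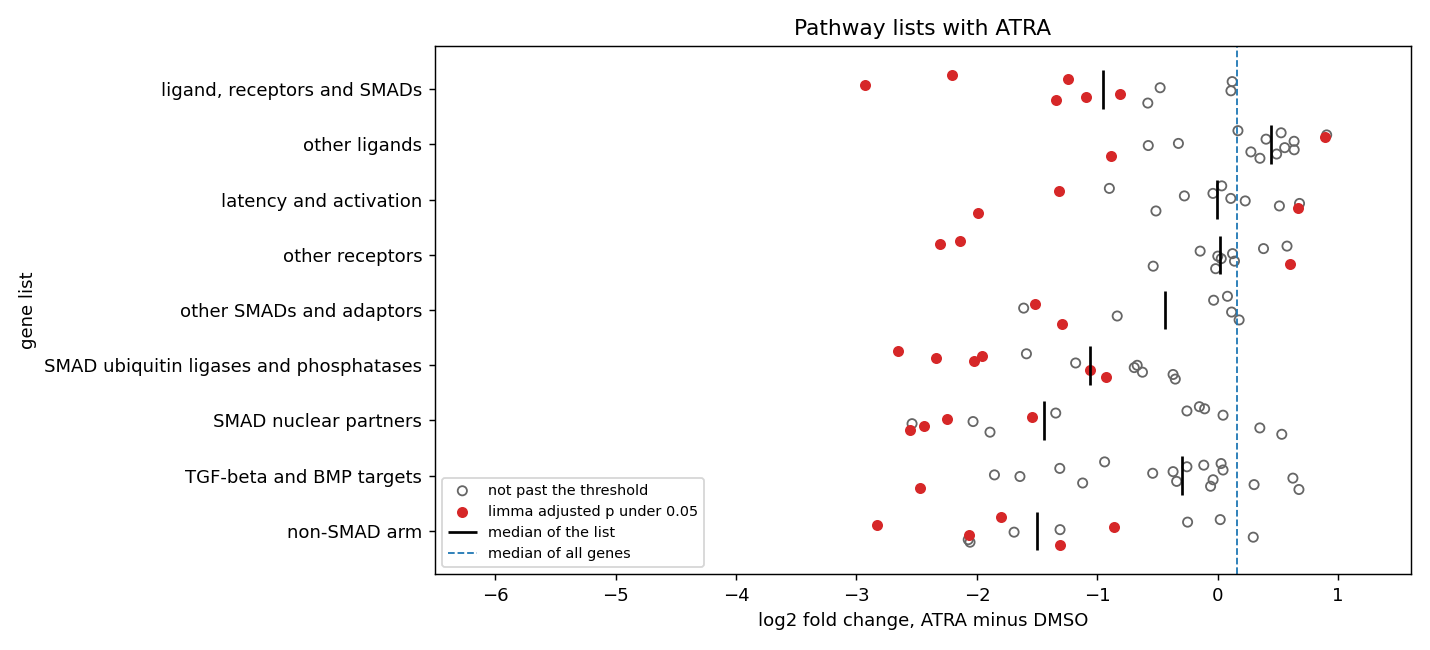
Log2 fold change of ATRA over DMSO (x axis) for each measured gene of the 9 gene lists (y axis), filled where the limma adjusted p is under 0.05, with each list's median (black bar) and the median of all genes (dashed line, 0.16). The ubiquitin ligase and phosphatase list has a median of -1.06. The list of other ligands, which includes the protease gene Bmp1, has a median of 0.44.

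Markers of the sorted cells differed between the groups, as did single markers of other marrow cells, and their part in these results was not tested. The mean over 7 measured HSC markers was 8.75 to 8.94 in DMSO and 6.83 to 7.71 in ATRA, and 4 of the 7 fell, where 15.5% of all genes did. Among genes near that level, those within 0.5 of the DMSO mean of Smad4 (8.71), 53.9% fell. The single markers ranged in DMSO mean from 7.51 (Tek) to 10.94 (Kit). With the level trend removed, 0 of these 7 passed (limma), and their median was -0.53. Of the 4 that fell, Kit (-0.59), Mecom (-0.65) and Tek (-0.56) then stayed negative. Only Hlf among these 4, chosen after its values were seen, changed sign, from -1.33 to 0.28. Of the 3 HSC markers that had not passed, Cd34 (from -1.21 to 1.1) and Procr (from -0.30 to 0.50) also turned positive. Slamf1 stayed negative (-0.53). The mean over 6 megakaryocyte and platelet markers was 7.96 to 8.37 in DMSO and 7.57 to 7.61 in ATRA, where 1 of the 6 fell, Itga2b. Pf4, the platelet factor 4 gene and a defining marker of that lineage, chosen after its values were seen, was at 10.28, 9.54 and 10.06 in DMSO and 10.41 and 9.17 in ATRA. It differed by -0.17 (adjusted p = 0.767), and with the level trend removed it passed as higher (2.03, adjusted p = 0.0284). Of the monocyte and macrophage (7), neutrophil (7), B cell (5), T and NK cell (7), erythroid (3) and stromal and endothelial (8) markers measured, 0 fell (limma). Among them 1 neutrophil, 1 T and NK cell and 1 stromal and endothelial marker rose, where 6.48% of all genes did. Removing the level trend ended these 3 calls and that of Itga2b, while Nkg7, a cytotoxic lymphocyte gene also chosen after its values were seen, went from -0.01 to pass as higher (0.85, adjusted p = 0.0394). The T and NK cell mean was 5.58 to 5.73 in DMSO and 6.19 to 6.33 in ATRA, and the stromal and endothelial mean was 6.51 to 6.60 and 6.80 to 7.04. The neutrophil mean was 5.31 to 5.76 in DMSO and 5.83 to 6.03 in ATRA, and the monocyte and macrophage mean was 6.53 to 6.59 and 6.11 to 6.83. For B cell markers it was 5.29 to 5.39 and 5.50 to 5.96, and for erythroid markers 6.48 to 6.95 and 5.92 to 6.68. Genes within 0.5 of the DMSO mean of Tgfbr1 (5.85) had a median change of 0.38. With the level trend removed, the median change was 0.24 for T and NK cell, 0.51 for stromal and endothelial and -0.21 for neutrophil markers. It was -0.07 for monocyte and macrophage, -0.12 for B cell and -0.13 for erythroid markers. The values carry no detection calls, so presence at a low level cannot be read from them.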

How the data were processed

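Per the labels' protocols, HSCs were sorted after culture, a kit for very little tissue gave the RNA, and biotin-labelled cRNA was hybridised to Affymetrix arrays. The authors deposited log2 expression values, 1 per feature and array. Named without a role in the submitters' processing notes are oligo 1.36.1, limma 3.28.20 and RMA. Neither the genome build nor whether the 5 arrays were normalized together is given in the sources used here. Amplification of little RNA and summaries over several probes can compress changes.

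Values were used as deposited. Of 41345 features, 23521 named 1 gene, 1814 several and 16010 none in the platform table. Symbols were updated by gene identifier through RefSeq (23328 features matched), and the feature with the highest mean stood for a gene. Groups and replicate numbers came from the sample titles. ATRA was compared with DMSO in limma 3.58.1 (R 4.3.3, lmFit and eBayes, two-sided, 3 residual and 1.52 prior degrees of freedom), with Benjamini-Hochberg adjustment over 22180 genes. An adjusted p comes from this fit unless its sentence names another setting, and then from limma under that setting. The script was tested on simulated data. The level trend was a lowess curve (span 0.3) of each array's difference from the DMSO mean. Other settings left out arrays, renormalized or centred them, used a replicate block, array weights or another variance model, left out dim genes, averaged features or used a threshold of 0.1.

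The 10 genes and the lists were chosen with earlier results of these data known. Named are all 10 genes, up to 3 genes with the smallest p in each pathway list, genes marked in the text as outside this rule, and the 5 genes nearest to the largest fall and the highest change. Sequences are RefSeq's, for 6 of the 10 genes. The number of arrays limits the precision. Scanner files were not used here.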

Additional observations from a re-analysis of the deposited data

How the results depend on the processing

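The 6 lower and 0 higher calls among the 10 genes became 0 to 7 lower and 0 to 1 higher when single arrays were left out, and the 1437 higher and 3428 lower calls among all genes became 0 to 7424 and 0 to 6783. All were 0 without any 1 DMSO array, with 5991, 6065 and 5907 genes at an unadjusted p under 0.05. The 1 higher gene was Smad6 without ATRA replicate 1, a fit that holds no spread of this gene, so that the call is no test of it.

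Among all genes, 439 were higher and 1743 lower after quantile normalization, 771 and 1504 after cyclic loess, 560 and 4542 with arrays centred on their median, and 505 and 223 with the level trend removed. With dim genes left out 942 were higher, and at a threshold of 0.1 3083 were. Cyclic loess left 3 of the 10 genes lower and the removed trend 0. Array weights left 0 calls among all genes and the 10 (limma, 922 genes higher and 3455 lower at an unadjusted p under 0.05). The weights were 1.31, 4.99 and 8.14 for DMSO replicates 1 to 3 and 0.137 for each ATRA array, where the main fit weighs all arrays equally. Signs turned under cyclic loess, median centring, quantile normalization and the removed trend for Tgfbr1 (-0.31, -0.15, -0.19, -0.24) and Smad6 (-0.30, -0.16, -0.17, -0.23), and under loess and the removed trend for Smad1 (0.066, 0.21), Smad2 (0.055, 0.40) and Smad4 (0.49, 0.69). With single arrays left out, Tgfbr1 ranged from -0.018 to 0.19 and Smad6 from -0.036 to 0.25. The cause was not tested. The other settings, an intensity trend with a robust prior and the mean of a gene's features, kept the counts within 1.5 times, though the former left 4 of the 10 genes lower, without Tgfb1 and Smad4. Quantile normalization also left 4.

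With the replicate number as a block, 0 genes and 0 of the 10 were called (limma, 1 residual degree of freedom, 1597 genes higher and 3815 lower at an unadjusted p under 0.05). Deviations from the group mean correlated across genes with r = 0.134 for replicates 1 of both groups and r = 0.0983 for replicates 2. DMSO replicate 3, without an ATRA partner, had r = 0.071 with ATRA replicate 2. With 2 ATRA arrays their deviations are mirror images, so each DMSO array has the same r with opposite sign for the other ATRA array. These values therefore cannot show whether the replicates were paired. The labels do not say that a number marks a shared culture, and with 2 pairs the samples share only a number.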
